A study of Mus musculus with 40 samples.

Results

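Mouse cardiac fibroblasts in which TAK1 had been deleted were stimulated with IL-1β or with TNFα, and the transcripts of the 4 IL-1β libraries were set directly against those of the 4 TNFα libraries. These 8 libraries are part of a series of 40 libraries in 10 groups of 4. A gene entered the comparison if it had at least 10 counts summed over the 40 libraries, which 25210 of the 55414 genes in the table had, whatever its level under the ligands. Both groups came from C57BL/6J TAK1fl/fl hearts of adult male mice, and the cells were used at passage 1. Both had received Ad-CMV-iCre, an adenovirus in which the CMV promoter drives Cre recombinase in whatever cell takes up the virus, and both had been serum-starved. The IL-1β group then received 15 ng/ml of IL-1β and the TNFα group 10 ng/ml of TNFα, each for 24 h, so that the ligands were compared at 1 dose each and the doses were not the same. The iCre fibroblasts without ligand and the TAK1fl/fl fibroblasts that received a LacZ control adenovirus and the same ligands are used below as reference groups of 4 libraries each. The study asked how TAK1 shapes the response of cardiac fibroblasts to such ligands.

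IL-1β and TNFα are cytokines released after tissue injury. IL-1β binds IL-1R1 and signals through MyD88, IRAK kinases and TRAF6, whereas TNFα binds TNFR1 and TNFR2 and signals through TRADD, RIPK1, TRAF2 and cIAP proteins. Both routes converge on TAK1, the kinase encoded by *Map3k7*, which activates the IKK complex and thereby NF-κB, as well as the stress kinases JNK and p38. The study names the recombinant ligands by supplier and catalogue number without a species, and the number given for TNFα appears to be that of a human protein. A mouse origin of the IL-1β is not stated either. Human TNFα is known to bind mouse TNFR1 but to bind mouse TNFR2 poorly, so that it is not known whether both receptors were engaged in the TNFα group.

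The floxed segment is exon 2 of *Map3k7*, and the table counts reads over the whole gene, so that transcripts of the recombined allele are counted too. *Map3k7* was at 129, 124, 122 and 129.9 CPM (read counts scaled to library size) in IL-1β replicates 1 to 4 and at 150.1, 126, 145 and 155 CPM in TNFα replicates 1 to 4. Both ranges lay below those of LacZ fibroblasts, which were 199 to 237 CPM with IL-1β and 209 to 251 CPM with TNFα. Between the iCre groups, *Map3k7* did not pass the test (log2 fold change −0.20, standard error 0.07, adjusted p = 0.09).
Of the 13 fibroblast markers checked, 12 had counts in each of the 8 libraries, and their summed level was 22889 to 35866 CPM with IL-1β and 15429 to 23548 CPM with TNFα. The depth of the 8 libraries ran from 29290918 to 55947432 reads assigned to genes. Replicates of a group differed by far more than sampling noise, with a chi-square of 51.2 to 292 per degree of freedom over genes, so that no library appeared to be deposited a second time. IL-1β and TNFα libraries with the same replicate number deviated from their group means in the same direction across genes, and the number was therefore used as a block.

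Of the 25210 genes tested, 4303 (17.1%) passed an adjusted p of 0.05 in edgeR's quasi-likelihood test with Benjamini-Hochberg adjustment. Higher levels with IL-1β than with TNFα were found for 2173 genes (8.62%) and lower levels for 2130 (8.45%), and 670 and 503 of them differed by at least 1 on the log2 scale. Throughout, a positive log2 fold change is higher with IL-1β. The median over all genes tested was 0.03. Leaving out replicate 3 gave 1117 higher and 1043 lower, and leaving out replicate 4 gave 1351 and 1300. A fit with no replicate block called 243 higher and 426 lower, all of them genes that passed with the block in the same direction. A lower level of a transcript in such bulk RNA can come from fewer cells of a type or from less RNA per cell, and these cannot be told apart here.

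**Figure D1:**
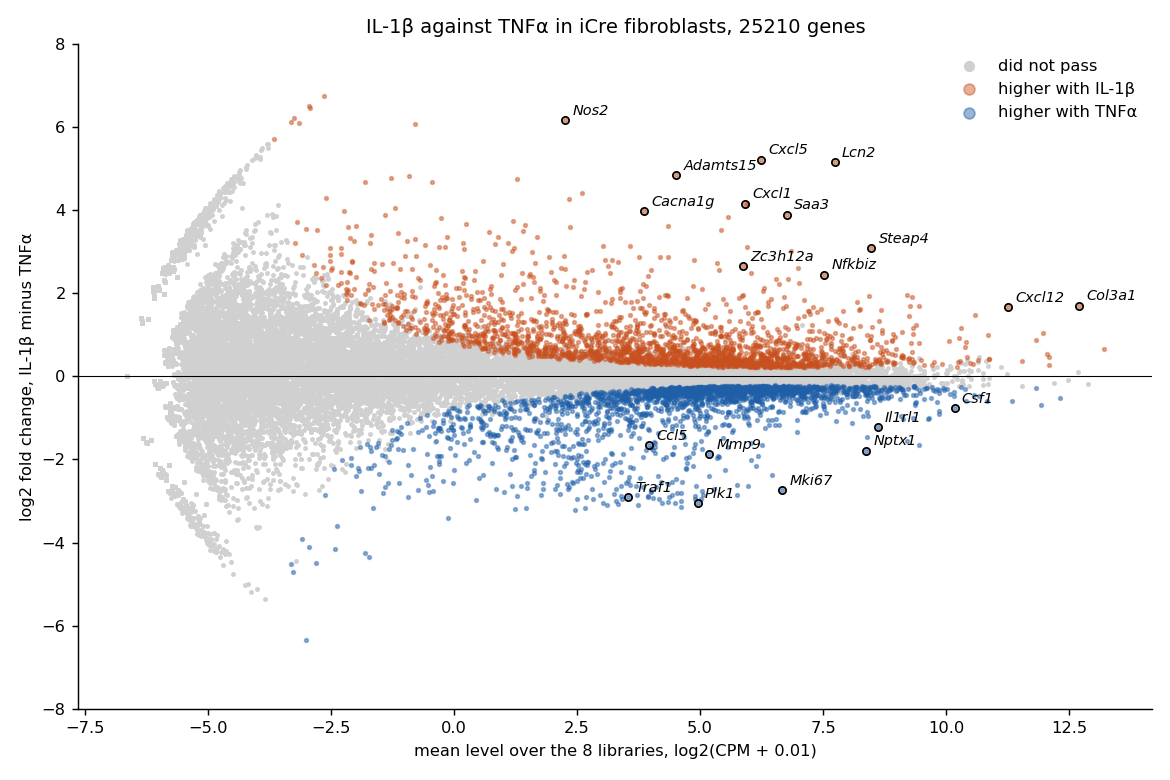
Log2 fold change between IL-1β and TNFα in iCre fibroblasts (vertical axis, positive is higher with IL-1β) against the mean level over the 8 libraries on a log2 scale (horizontal axis). Each point is a gene, orange and blue points passed the test, and circles mark genes named in the text, from *Nos2* at 6.16 to *Plk1* at −3.06.

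Neutrophil chemokines and the inducible nitric oxide synthase were among the 10 protein-coding genes with the largest change toward IL-1β at a mean level of 1 CPM or more. *Nos2* (ENSMUSG00000020826; chromosome 11, 78920787 to 78960254 of GRCm38) encodes the synthase that makes nitric oxide in inflamed tissue. It was at 7.20, 6.33, 9.12 and 15.2 CPM with IL-1β and at 0.0509, 0.333, 0.0389 and 0.0649 CPM with TNFα (log2 fold change 6.16, standard error 0.40, adjusted p = 4.08e-07). All IL-1β libraries lay above all TNFα libraries, and without TNFα replicate 2 and its IL-1β partner the log2 fold change was 7.59. In LacZ fibroblasts *Nos2* was at 205 to 489 CPM with IL-1β and 4.44 to 25.2 CPM with TNFα, and the difference of the contrasts between iCre and LacZ fibroblasts did not pass the test (difference 1.68, adjusted p = 0.215).

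*Cxcl5* and *Cxcl1* lie on chromosome 5 (90759360 to 90761624 and 90891241 to 90893115) and encode ligands of CXCR2 that attract neutrophils. *Cxcl5* was at 135, 252, 105 and 94.2 CPM with IL-1β and 3.59, 7.04, 2.55 and 2.66 CPM with TNFα (log2 fold change 5.22, standard error 0.09, adjusted p = 6.99e-13). *Cxcl1* was at 178, 64.3, 105 and 109 CPM with IL-1β and 8.21, 9.59, 4.46 and 3.34 CPM with TNFα (log2 fold change 4.15, standard error 0.27, adjusted p = 4.43e-07). The groups did not overlap for either gene. Against iCre fibroblasts without ligand, *Cxcl5* was higher with IL-1β (log2 fold change 4.12, adjusted p = 5.23e-83) and lower with TNFα (log2 fold change −1.05, adjusted p = 0.00256). *Cxcl1* was higher than without ligand with both cytokines, by 5.05 with IL-1β (adjusted p = 5.6e-88) and by 0.92 with TNFα (adjusted p = 0.000673). Both comparisons used the same 4 libraries without ligand. They were fitted separately, so that here and below their p-values cannot be compared between the ligands. A value as small as 5.6e-88 from 4 libraries a group should not be read as that degree of certainty. Among all genes tested, 33.8% passed with IL-1β against no ligand (18.1% higher and 15.6% lower) and 36.1% with TNFα (18.9% higher and 17.3% lower). Scaling by raw library sizes moved the median log2 fold change of all genes from 0 to −0.13 with IL-1β and from −0.04 to −0.17 with TNFα in these comparisons, and turned the split of 4570 higher to 3943 lower with IL-1β into 3004 and 5377, and 4760 and 4349 with TNFα into 3679 and 5403.

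*Csf3*, the gene for the granulocyte growth factor G-CSF, was at 2.84, 5.47, 2.08 and 5.48 CPM with IL-1β and 0, 2.33, 0.0195 and 0.0324 CPM with TNFα (log2 fold change 3.74, standard error 0.69, adjusted p = 0.00174). The groups overlapped because TNFα replicate 2 lay above IL-1β replicate 3. The call was lost without the block (adjusted p = 0.309), and the log2 fold change was 7.38 without replicate 2. *Csf1*, which encodes the macrophage growth factor M-CSF, went the other way, at 875, 552, 923 and 1082 CPM with IL-1β and 1195, 1079, 1802 and 1724 CPM with TNFα (log2 fold change −0.77, standard error 0.10, adjusted p = 7.36e-05), with overlapping groups and a call that was lost without the block. Of the 8 tested members of the list of neutrophil-attracting chemokines and colony-stimulating factors, 5 were higher and 1 was lower with IL-1β, with a median log2 fold change of 2.93, or 2.79 with *Cxcl15*, which had no counts in the TNFα libraries, set to the bound that 3 counts over the group allow. The number higher was 3 without replicate 3 and 2 without the block, which also left none lower. In LacZ fibroblasts, 6 were higher and 1 was lower, against 12% and 12.2% of all genes tested (24.2% in all, 3029 and 3078 genes, or 2337 and 3964 with raw library sizes).

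Acute-phase and complement genes formed the second group. *Lcn2* encodes lipocalin-2, which binds bacterial iron carriers, and was at 439, 292, 353 and 573 CPM with IL-1β and 6.21, 19.7, 15 and 7.81 CPM with TNFα (log2 fold change 5.15, standard error 0.33, adjusted p = 3.97e-07). *Saa3*, an acute-phase serum amyloid A, was at 321, 176, 115 and 198 CPM with IL-1β and 17.2, 24.4, 8.33 and 6.94 CPM with TNFα (log2 fold change 3.89, standard error 0.23, adjusted p = 2.51e-07). Haptoglobin (*Hp*), which binds free hemoglobin, was at 39.4, 19.5, 14.5 and 30.9 CPM with IL-1β and 5.75, 4.52, 3.89 and 4.05 CPM with TNFα (log2 fold change 2.42, standard error 0.16, adjusted p = 4.15e-07). None of these groups overlapped, and IL-1β was above TNFα in each of the 4 same-numbered pairs.
*Steap4*, a metal reductase induced by inflammation, was at 660.1, 793, 492 and 423 CPM with IL-1β and 69, 345, 50.9 and 17.3 CPM with TNFα (log2 fold change 3.08, standard error 0.38, adjusted p = 7.27e-05). TNFα replicate 2 stood apart from the other TNFα libraries, without reaching the IL-1β range. *C1ra*, which encodes a protease of the classical complement pathway, was at 329.8, 285, 246 and 181 CPM with IL-1β and 150.1, 69, 85.8 and 53.1 CPM with TNFα (log2 fold change 1.61, standard error 0.12, adjusted p = 1.18e-06). *Ptx3*, a soluble pattern-recognition molecule, was at 261, 51.3, 153 and 169 CPM with IL-1β and 108, 11.2, 42.5 and 32 CPM with TNFα (log2 fold change 1.92, standard error 0.14, adjusted p = 1.27e-06). The *Ptx3* groups overlapped, since replicates 1 and 2 lay at the high and the low end of both, while each pair kept the direction. Calls of *Steap4* and *Ptx3* were lost without the block.

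Of the 25 tested members of the complement and acute-phase list, 18 were higher and 2 lower with IL-1β than with TNFα, with a median log2 fold change of 1.45. In LacZ fibroblasts 12 were higher and 5 lower, with a median of 0.21. Whether the contrast itself changed with the adenovirus was tested by an interaction term in the 16 libraries, which called 2700 genes (10.7%), 1500 of them positive (5.95%, shifted toward IL-1β in iCre) and 1200 negative (4.76%). Of the acute-phase list, 11 members were positive and 2 negative. *Saa3* (difference 2.04, adjusted p = 0.00597), *Ptx3* (difference 3.29, adjusted p = 1.37e-05) and *C1ra* (difference 1.39, adjusted p = 0.00115) were among the positive ones. For *Ptx3* the contrast had the opposite sign in LacZ fibroblasts (log2 fold change −1.37, adjusted p = 2.58e-12). *Lcn2* was among the negative ones (difference −2.81, adjusted p = 0.00147), and in LacZ fibroblasts it was at 1948 to 3946 CPM with IL-1β against 7.53 to 17.5 CPM with TNFα. Serum amyloid genes are close copies of each other, so that reads may have been split between them and their values are uncertain. Without the block, 6 members of the list were higher with IL-1β.

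Of the 10 genes that the naming rule took for the largest change toward IL-1β, 5 belonged to neither group, namely *Adamts15*, *Inmt*, *Aoc3*, *Gdpd2* and *Cacna1g*. *Inmt*, for an indole methyltransferase, was at 7.10, 6.44, 4.22 and 0.749 CPM with IL-1β and 0.280, 0.190, 0.0779 and 0.130 CPM with TNFα (log2 fold change 4.76, standard error 0.32, adjusted p = 5.77e-07). *Aoc3*, for a vascular amine oxidase, was at 16.4, 9.25, 14.8 and 5.06 CPM with IL-1β and 1.86, 0.262, 0.311 and 0.162 CPM with TNFα (log2 fold change 4.42, standard error 0.32, adjusted p = 9.83e-07). *Cacna1g*, for a T-type calcium channel, was at 11.9, 53.9, 20.3 and 23.4 CPM with IL-1β and 1.12, 2.12, 1.42 and 1.62 CPM with TNFα (log2 fold change 3.97, standard error 0.17, adjusted p = 2.17e-08). The groups of each were apart.
*Gdpd2*, for a glycerophosphodiester phosphodiesterase, was at 7.37, 10.3, 18.5 and 2.06 CPM with IL-1β and 0.763, 0.642, 0.350 and 0.130 CPM with TNFα (log2 fold change 4.26, standard error 0.31, adjusted p = 1.06e-06). The cell cycle inhibitor gene *Cdkn1c* was at 24.3, 64, 50.3 and 12.8 CPM with IL-1β and 3.79, 4.09, 2.36 and 1.30 CPM with TNFα (log2 fold change 3.62, standard error 0.22, adjusted p = 2.94e-07), without overlap. *Inmt*, *Aoc3*, *Gdpd2* and *Cdkn1c* were below the level without ligand under both cytokines, with log2 fold changes of −1.85, −1.34, −1.05 and −1.07 with IL-1β (adjusted p from 1.26e-30 to 3.65e-14) and of −6.57, −5.74, −5.19 and −4.63 with TNFα (adjusted p from 1.5e-06 to 9.34e-06). *Cacna1g* was higher than without ligand with IL-1β (3.01, adjusted p = 2.3e-58) and lower with TNFα (−0.95, adjusted p = 0.00622).

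**Figure D2:**
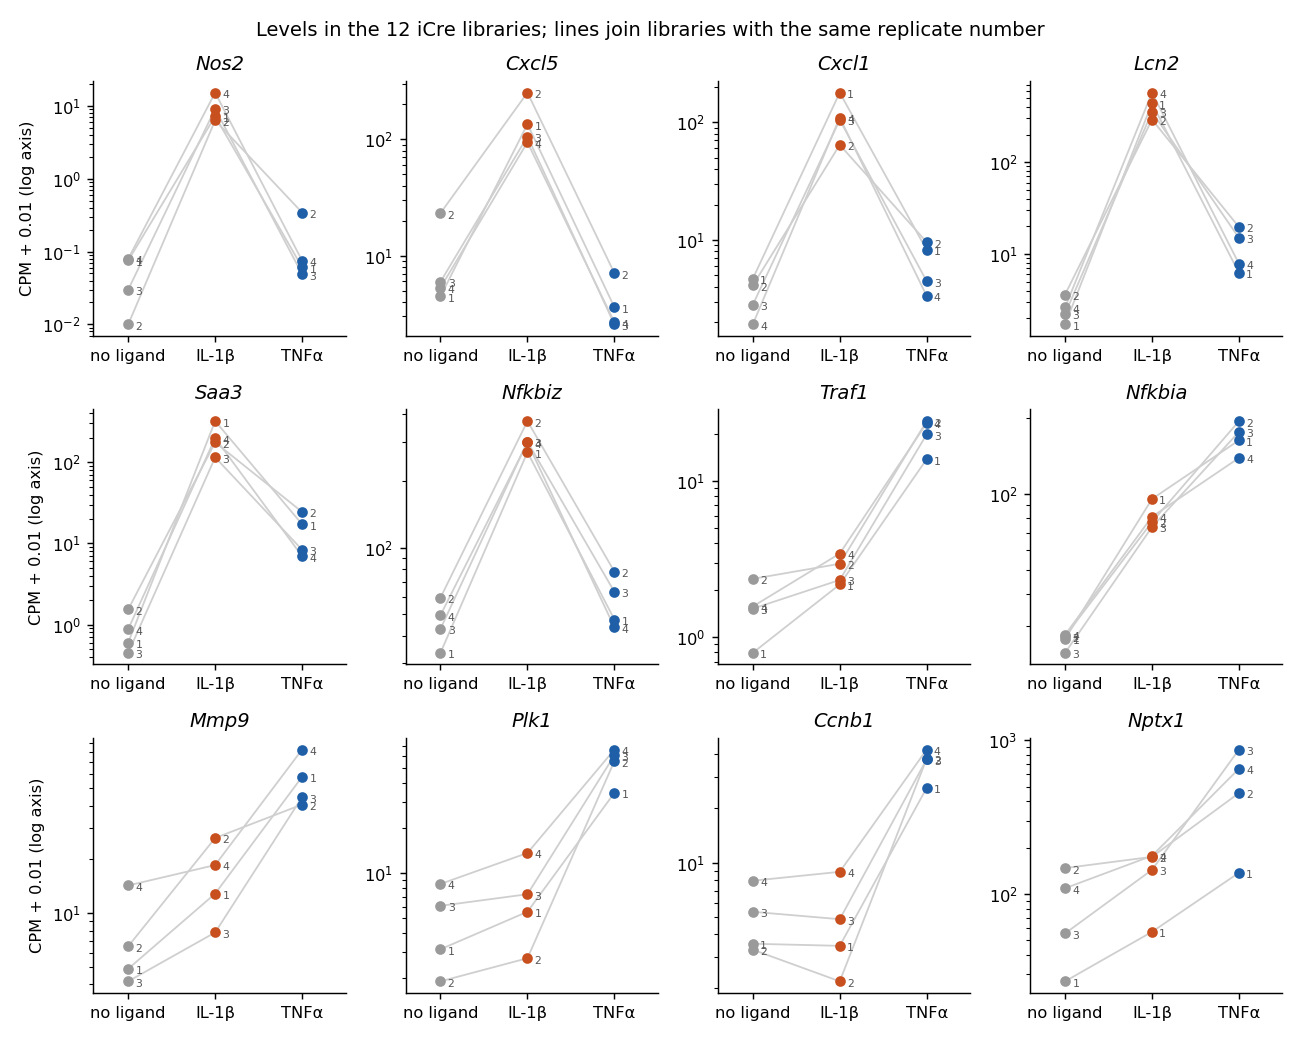
CPM plus 0.01 on a log axis of 12 genes in iCre fibroblasts without ligand (gray), with IL-1β (orange) and with TNFα (blue). Each numbered point is a library and lines join libraries with the same replicate number, so that *Nos2*, *Cxcl5* and *Lcn2* peak with IL-1β, *Traf1*, *Plk1* and *Ccnb1* peak with TNFα, and the *Nptx1* groups overlap while each line rises from IL-1β to TNFα.

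Genes of the receptors' own pathways were found on both sides. *Il1r1*, the gene for the signaling receptor of IL-1β, was at 250.3, 234, 224 and 212 CPM with IL-1β and 119, 164, 97.1 and 71.4 CPM with TNFα (log2 fold change 1.08, standard error 0.13, adjusted p = 5.35e-05). *Traf1*, an adaptor of TNF receptor complexes and a known NF-κB target, was at 2.17, 2.95, 2.32 and 3.42 CPM with IL-1β and 13.8, 24.2, 19.9 and 23.5 CPM with TNFα (log2 fold change −2.91, standard error 0.12, adjusted p = 1.27e-08). The groups did not overlap for either gene, and *Traf1* was higher in LacZ fibroblasts with TNFα too (log2 fold change −3.0, adjusted p = 1.09e-14).
*Birc3*, which encodes the ubiquitin ligase cIAP2, was at 70.2, 44.1, 56 and 54.8 CPM with IL-1β and 107, 74.1, 88.7 and 65.8 CPM with TNFα (log2 fold change −0.58, standard error 0.09, adjusted p = 0.000342), with overlapping groups. *Traf3*, an adaptor that restrains non-canonical NF-κB, was at 101, 66.2, 89.1 and 107 CPM with IL-1β and 138, 118, 152 and 137 CPM with TNFα (log2 fold change −0.61, standard error 0.09, adjusted p = 0.000258), without overlap. *Irak3*, an inhibitor of IL-1 receptor signaling, was at 31.3, 15.9, 28.7 and 20.5 CPM with IL-1β and 19.5, 7.76, 12 and 6.81 CPM with TNFα (log2 fold change 1.13, standard error 0.13, adjusted p = 4.38e-05). Its groups overlapped at replicates 1 and 2, and all 4 pairs were higher with IL-1β. *Map3k8*, the gene for the ERK-activating kinase TPL2, was at 19.9, 16.4, 19.6 and 19.2 CPM with IL-1β and 6.71, 5.38, 5.33 and 4.28 CPM with TNFα (log2 fold change 1.79, standard error 0.12, adjusted p = 6.04e-07), and the groups did not overlap.
*Il1rn*, for the antagonist of the IL-1 receptor, was at 4.41, 15, 7.74 and 11.3 CPM with IL-1β and 5.34, 1.64, 2.90 and 3.34 CPM with TNFα (log2 fold change 1.49, standard error 0.38, adjusted p = 0.0138). The groups overlapped, since TNFα was above IL-1β in replicate 1, and the call was lost without replicate 3, without replicate 4 and without the block. *Il1rl1*, which encodes the IL-33 receptor ST2, was at 13.8, 879, 9.27 and 37.9 CPM with IL-1β and 26, 2046, 33.8 and 71 CPM with TNFα (log2 fold change −1.23, standard error 0.13, adjusted p = 1.95e-05). Replicate 2 was far above the others in both groups, and TNFα was above IL-1β in each pair.
Of the 21 tested members of the IL-1 list, 5 were higher and 5 lower with IL-1β. Of 19 members of the TNF list, 2 were higher and 6 lower, and of 13 members of the TAK1 and MAP kinase list, 1 was higher and 1 lower. Among all genes tested, 8.62% were higher and 8.45% lower. The TAK1 and MAP kinase list (7.69% each way) and the TNF list members that were higher (10.5%) were near those shares. Without replicate 3, the IL-1 list had 2 members higher and 2 lower and the TNF list none higher and 4 lower. Without the block, the IL-1 list had 1 higher and none lower and the TNF list none higher and 1 lower. The calls of *Birc3*, *Traf3*, *Irak3* and *Il1rl1* were lost without the block.

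Among NF-κB inhibitors and feedback genes, *Nfkbiz* was higher and *Nfkbia* and *Nfkbie* were lower with IL-1β. *Nfkbiz* encodes IκBζ, a nuclear cofactor for a subset of NF-κB targets, and was at 270.0, 373, 301 and 299 CPM with IL-1β and 47.3, 77.8, 63.1 and 43.6 CPM with TNFα (log2 fold change 2.44, standard error 0.10, adjusted p = 1.04e-08). *Zc3h12a* encodes Regnase-1, an RNase that degrades cytokine mRNAs, and was at 116, 76.4, 104 and 108 CPM with IL-1β and 15.6, 20.2, 13.7 and 14.3 CPM with TNFα (log2 fold change 2.66, standard error 0.15, adjusted p = 1.48e-07). *Nfkbia*, the gene for the inhibitor IκBα, was at 95.3, 77.2, 73.8 and 81 CPM with IL-1β and 163, 194, 176 and 139 CPM with TNFα (log2 fold change −1.04, standard error 0.10, adjusted p = 8.49e-06). All 3 separated the groups without overlap.
*Nfkbie*, for IκBε, was at 41.8, 20.3, 21.8 and 31.7 CPM with IL-1β and 102, 57.5, 71.2 and 56.5 CPM with TNFα (log2 fold change −1.34, standard error 0.11, adjusted p = 3.25e-06). *Tnfaip3*, for the deubiquitinase A20, was at 54.3, 24.4, 48.7 and 44.6 CPM with IL-1β and 102, 70.0, 93.1 and 58.4 CPM with TNFα (log2 fold change −0.94, standard error 0.13, adjusted p = 0.000208). Neither gene had overlapping groups, and the call of *Tnfaip3* was lost without the block.
Both *Nfkbiz* and *Nfkbia* were above the level without ligand in IL-1β-treated cells, by 2.78 (adjusted p = 1.41e-72) and 1.66 (adjusted p = 2.84e-46) on the log2 scale. With TNFα, the corresponding values were 0.35 (adjusted p = 0.0437) and 2.71 (adjusted p = 1.5e-06).
Of 24 members of the NF-κB list, 6 were higher and 10 lower with IL-1β, with a median of −0.06, and without the block these counts were 3 and 5. Without replicate 4, 3 were higher. In LacZ fibroblasts 5 were higher and 17 lower, and the interaction was positive for 10 members and negative for 1. *Nfkbie* was among the positive members (difference 1.16, adjusted p = 0.00406).

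Promoters of *Cxcl1*, which was higher with IL-1β, and of *Nfkbia*, which was lower, are shown because both hold a match to the NF-κB binding motif. The sequences run from 250 bases before to 50 bases after the start of RefSeq transcripts on GRCm38.p6, 5′ to 3′ on the strand of the gene, and capitals mark the bases matched.
*Cxcl1* (chr5:90890995-90891294, + strand): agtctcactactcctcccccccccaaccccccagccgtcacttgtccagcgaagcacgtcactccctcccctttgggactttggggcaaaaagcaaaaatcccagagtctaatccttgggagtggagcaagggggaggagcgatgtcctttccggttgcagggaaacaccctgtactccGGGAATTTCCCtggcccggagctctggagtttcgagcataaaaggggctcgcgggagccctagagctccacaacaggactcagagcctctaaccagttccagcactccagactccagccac
*Nfkbia* (chr12:55492598-55492897, − strand): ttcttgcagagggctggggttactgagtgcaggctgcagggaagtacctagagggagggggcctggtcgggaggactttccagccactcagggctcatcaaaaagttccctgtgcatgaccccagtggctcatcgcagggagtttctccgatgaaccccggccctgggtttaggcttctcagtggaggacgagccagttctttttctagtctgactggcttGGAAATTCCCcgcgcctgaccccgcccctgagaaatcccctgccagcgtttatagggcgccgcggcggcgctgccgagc
In *Cxcl1* 2 overlapping matches lie on opposite strands, starting at bases 180 and 181 of the 300, and in *Nfkbia* the match starts at base 222. RefSeq promoters were found for 19 of the 24 tested NF-κB list members, of which 9 (47.4%) held the motif on either strand, and for 6 of the 8 neutrophil list members, of which 4 (66.7%) held it. Of the 10 leading genes higher with IL-1β, 5 had a promoter and 1 of these held the motif. Among 27025 genes with a promoter of this length, 5.14% held it. A match is a description of letters and not a bound site.

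Among other secreted mediators, members of the same family were found on both sides. *Il6* was at 59.1, 21.1, 34.4 and 113 CPM with IL-1β and 14.2, 7.78, 19.6 and 17.4 CPM with TNFα (log2 fold change 1.75, standard error 0.22, adjusted p = 7.55e-05), without overlap. *Il11*, a profibrotic cytokine of the IL-6 family, was at 5.40, 13.2, 9.25 and 45.8 CPM with IL-1β and 5.29, 31.1, 35.8 and 68 CPM with TNFα (log2 fold change −0.97, standard error 0.22, adjusted p = 0.00717), with overlapping groups and replicate 4 highest in both. The call of *Il11* was lost without replicate 3. Both genes had negative interactions, −2.19 for *Il6* (adjusted p = 0.00245) and −2.31 for *Il11* (adjusted p = 0.0291), and *Il11* was higher with IL-1β in LacZ fibroblasts (log2 fold change 1.36, adjusted p = 2.38e-05).
*Tslp*, an alarmin cytokine, was at 6.36, 6.58, 5.20 and 9.98 CPM with IL-1β and 8.80, 17.3, 13 and 27.2 CPM with TNFα (log2 fold change −1.17, standard error 0.15, adjusted p = 8.53e-05). *Socs3*, a feedback inhibitor of IL-6 family receptors, was at 115, 142, 96.6 and 113 CPM with IL-1β and 46.6, 99.3, 65.4 and 56.7 CPM with TNFα (log2 fold change 0.83, standard error 0.11, adjusted p = 0.000146). Each of these genes kept its direction in all 4 pairs although its groups overlapped. Of 22 members of the list of IL-6 family and other cytokines, 8 were higher and 4 lower with IL-1β, but none was called in either direction without the block, and 2 were lower without replicate 3. Calls of *Il6*, *Il11*, *Tslp* and *Socs3* were lost without the block.

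The monocyte chemokine *Ccl2* was at 518, 441, 353 and 703 CPM with IL-1β and 641, 1207, 709 and 677 CPM with TNFα (log2 fold change −0.68, standard error 0.18, adjusted p = 0.0184), and the groups overlapped. Its call was lost without replicate 2, without replicate 3, without the block and with DESeq2. *Ccl5*, which attracts T cells and monocytes, was at 5.65, 8.38, 5.01 and 11.7 CPM with IL-1β and 30.2, 28.9, 15.7 and 19.6 CPM with TNFα (log2 fold change −1.66, standard error 0.20, adjusted p = 5.44e-05), without overlap. *Ccl9* was at 18.1, 9.11, 9.79 and 12.7 CPM with IL-1β and 46.1, 17.2, 28.9 and 29.8 CPM with TNFα (log2 fold change −1.27, standard error 0.11, adjusted p = 2.73e-06), with TNFα replicate 2 below IL-1β replicate 1, and its call was lost without the block. *Cxcl12*, the ligand of CXCR4, was at 3675, 4018, 4489 and 2536 CPM with IL-1β and 1673, 953, 1514 and 677 CPM with TNFα (log2 fold change 1.67, standard error 0.13, adjusted p = 1.83e-06). It did not overlap between groups, and it was below the level without ligand with TNFα (log2 fold change −1.56, adjusted p = 0.000377), while the value with IL-1β was 0.10 (adjusted p = 0.369). *Ccl8*, for a chemokine that attracts monocytes, was at 16.9, 19.4, 14.2 and 19.8 CPM with IL-1β and 13.6, 7.21, 7.82 and 6.97 CPM with TNFα (log2 fold change 1.01, standard error 0.17, adjusted p = 0.000821), without overlap. *Ccl11*, for the eosinophil chemokine eotaxin, was at 4.02, 17.3, 2.42 and 3.56 CPM with IL-1β and 1.53, 3.19, 0.915 and 0.551 CPM with TNFα (log2 fold change 1.95, standard error 0.22, adjusted p = 3.1e-05), with overlapping groups and each pair higher with IL-1β. The calls of both were lost without the block. Of 18 CC chemokines tested, 2 were higher and 3 lower with IL-1β, against none and 1 without the block. The share higher (11.1%) was near the 8.62% of all genes tested, and the share lower was 16.7% against 8.45%.

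Lipid mediator and adhesion genes were found on both sides. *Ptger1*, for a receptor of prostaglandin E2, was at 14.4, 10.7, 15.5 and 11.2 CPM with IL-1β and 6.82, 4.02, 6.60 and 4.51 CPM with TNFα (log2 fold change 1.25, standard error 0.11, adjusted p = 5.17e-06), without overlap. *Tbxa2r*, for the thromboxane receptor, was at 21.1, 12.8, 17.8 and 11.5 CPM with IL-1β and 14, 5.07, 7.24 and 4.93 CPM with TNFα (log2 fold change 1.10, standard error 0.13, adjusted p = 6.47e-05), with overlapping groups and a call that was lost without the block. *Ptges*, which encodes the inducible prostaglandin E synthase, was at 49.4, 140.5, 81.6 and 143 CPM with IL-1β and 50.4, 534, 181 and 209.9 CPM with TNFα (log2 fold change −0.92, standard error 0.21, adjusted p = 0.00787), and replicate 1 gave about the same value in both. The call was lost without replicate 3. *Ptgs1*, the constitutive cyclooxygenase, was at 116, 144, 233 and 205 CPM with IL-1β and 172, 275, 477 and 360.2 CPM with TNFα (log2 fold change −0.85, standard error 0.08, adjusted p = 1.11e-05). The inducible cyclooxygenase *Ptgs2* was at 81.6, 133, 111 and 275 CPM with IL-1β and 35.6, 208, 123 and 151 CPM with TNFα and did not pass the test (log2 fold change 0.30, standard error 0.22, adjusted p = 0.46). In LacZ fibroblasts *Ptgs2* was higher with IL-1β (log2 fold change 2.22, adjusted p = 3.63e-10), and the difference was negative (−1.73, adjusted p = 0.0349). *Vcam1*, an adhesion molecule for leukocytes, was at 1379, 709, 1085 and 1074 CPM with IL-1β and 2313, 921, 2031 and 1352 CPM with TNFα (log2 fold change −0.60, standard error 0.10, adjusted p = 0.00102), with overlapping groups. *Selp*, for P-selectin, was at 53.8, 19.7, 66.1 and 87.2 CPM with IL-1β and 9.54, 12.8, 59.7 and 36.3 CPM with TNFα (log2 fold change 1.10, standard error 0.26, adjusted p = 0.00893), with overlapping groups and a call that was lost without replicate 4, without the block and with DESeq2. The Toll-like receptor genes *Tlr5* and *Tlr6* were higher with IL-1β by 0.85 (adjusted p = 0.0283) and 0.86 (adjusted p = 0.0182) at levels of 0.582 to 2.23 and 1.28 to 2.56 CPM. *Madcam1*, for an adhesion molecule of mucosal vessels, was lower by −2.25 (adjusted p = 0.000655) at 0.134 to 1.07 CPM with IL-1β and 0.649 to 2.16 CPM with TNFα. The calls of *Tlr5* and *Tlr6* were lost without replicate 3, that of *Tlr5* also without replicates 1 or 4, and those of all 3 without the block. Of the 28 lipid mediator genes tested, 5 were higher with IL-1β and 4 were lower, and of the 20 adhesion and pattern-recognition genes 5 were higher and 2 lower (10%), against 8.62% and 8.45% of all genes tested. These counts rest on few libraries, since without replicate 3 the lipid mediator counts were 3 and 1, without replicate 4 the number of adhesion genes higher was 1, and without the block 1 lipid mediator gene was higher and no other member of either list was called. The calls of *Ptges*, *Ptgs1* and *Vcam1* were lost without the block.

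Most of the matrix genes that passed were higher with IL-1β than with TNFα. *Col3a1*, a fibrillar collagen gene, was at 14911, 8681, 8958 and 7002 CPM with IL-1β and 6670.1, 3346, 2047 and 1544 CPM with TNFα (log2 fold change 1.71, standard error 0.16, adjusted p = 5.75e-06). *Col1a1* was at 5886, 3506, 4997 and 4516 CPM with IL-1β and 3272, 2042, 2863 and 2061 CPM with TNFα (log2 fold change 0.88, standard error 0.09, adjusted p = 1.29e-05). *Lox*, for the enzyme that cross-links collagen, was at 1071, 812, 774 and 1271 CPM with IL-1β and 394, 126, 283 and 297 CPM with TNFα (log2 fold change 1.91, standard error 0.17, adjusted p = 3.99e-06). The groups did not overlap for these genes, and without the block only *Lox* of the 3 kept its call. The direction of *Col3a1* and *Lox* against TNFα went with a lower level under TNFα than without ligand, by −1.68 (adjusted p = 0.000143) and −1.50 (adjusted p = 0.00104), and with values under IL-1β of 0.01 (adjusted p = 0.953) and 0.38 (adjusted p = 1.92e-05).
*Ccn2*, the gene for connective tissue growth factor, was at 1399, 428, 895 and 1328 CPM with IL-1β and 794, 65.4, 389 and 309 CPM with TNFα (log2 fold change 1.70, standard error 0.23, adjusted p = 0.000155). *Ogn*, for the small proteoglycan osteoglycin, was at 66.6, 204, 71.7 and 12.8 CPM with IL-1β and 18.3, 2.59, 3.15 and 1.88 CPM with TNFα (log2 fold change 3.84, standard error 0.54, adjusted p = 0.000203). *Acta2*, the gene for the smooth muscle actin of myofibroblasts, was at 323, 201, 331 and 263 CPM with IL-1β and 285, 98.7, 142 and 75.4 CPM with TNFα (log2 fold change 1.05, standard error 0.18, adjusted p = 0.00113). In all 3, the lowest IL-1β library lay below the highest TNFα library, each pair kept the direction, and the call was lost without the block. The contrast of *Acta2* had the opposite sign in LacZ fibroblasts (log2 fold change −0.95, adjusted p = 3.31e-11), with an interaction of 2.04 (adjusted p = 0.00109).
Of 29 collagen and fibrous matrix genes, 17 were higher with IL-1β and 2 were lower (median 0.46). Of 30 matricellular and proteoglycan genes, 18 were higher and 2 lower (median 0.47), and the number lower was 4 without replicate 1 and none without replicate 2 or 3. Of 17 contractile genes, 8 were higher and none was lower (median 0.38), while in LacZ fibroblasts 3 were higher and 8 lower, with 6 positive interactions. Without the block, 1 gene of each of these 3 lists was higher, so that these counts rest on the pairing by replicate number, and without replicate 3 the contractile count was 4. The markers of fibroblasts, which share 5 genes with these lists, were higher with IL-1β in 8 of 13 cases and lower in 2, and none was called without the block.

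Proteases of the matrix were found on both sides. *Mmp9*, a gelatinase, was at 12.9, 26.4, 7.79 and 18.6 CPM with IL-1β and 58, 40.6, 44.6 and 82.4 CPM with TNFα (log2 fold change −1.87, standard error 0.22, adjusted p = 5.61e-05), without overlap. *Mmp10*, a stromelysin, was at 1.08, 5.29, 1.25 and 1.79 CPM with IL-1β and 1.86, 68.5, 3.33 and 3.34 CPM with TNFα (log2 fold change −1.87, standard error 0.39, adjusted p = 0.00428). TNFα replicate 2 was far above the rest, and the log2 fold change was −1.04 without replicate 2. *Adamts15*, which cleaves proteoglycans such as versican, was at 28.8, 117, 25.5 and 5.48 CPM with IL-1β and 3.89, 0.690, 0.915 and 0.0973 CPM with TNFα (log2 fold change 4.84, standard error 0.52, adjusted p = 2.12e-05). The groups did not overlap, and the value moved between 3.91 and 6.09 when a replicate was left out. Of 24 matrix metalloproteinases and inhibitors, 6 were higher with IL-1β and 6 were lower, and of 23 ADAMTS and ADAM genes 11 were higher and 4 lower (median 0.51). Without replicate 3, 3 of the metalloproteinase list were higher and 2 lower, and without the block none was higher and 1 lower, while the ADAMTS and ADAM list had 3 higher and 2 lower without the block.
*Plaur*, the gene for the urokinase receptor, was at 33.2, 23.3, 33.3 and 77.9 CPM with IL-1β and 38.6, 57.7, 99.4 and 140.0 CPM with TNFα (log2 fold change −1.0, standard error 0.16, adjusted p = 0.00057). *F2rl1*, for the protease-activated receptor PAR2, was at 1.46, 2.85, 1.32 and 1.55 CPM with IL-1β and 5.19, 21.2, 4.03 and 3.89 CPM with TNFα (log2 fold change −1.97, standard error 0.22, adjusted p = 3.27e-05). Only *F2rl1* separated the groups without overlap. Both calls were lost without the block.

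**Figure D3:**
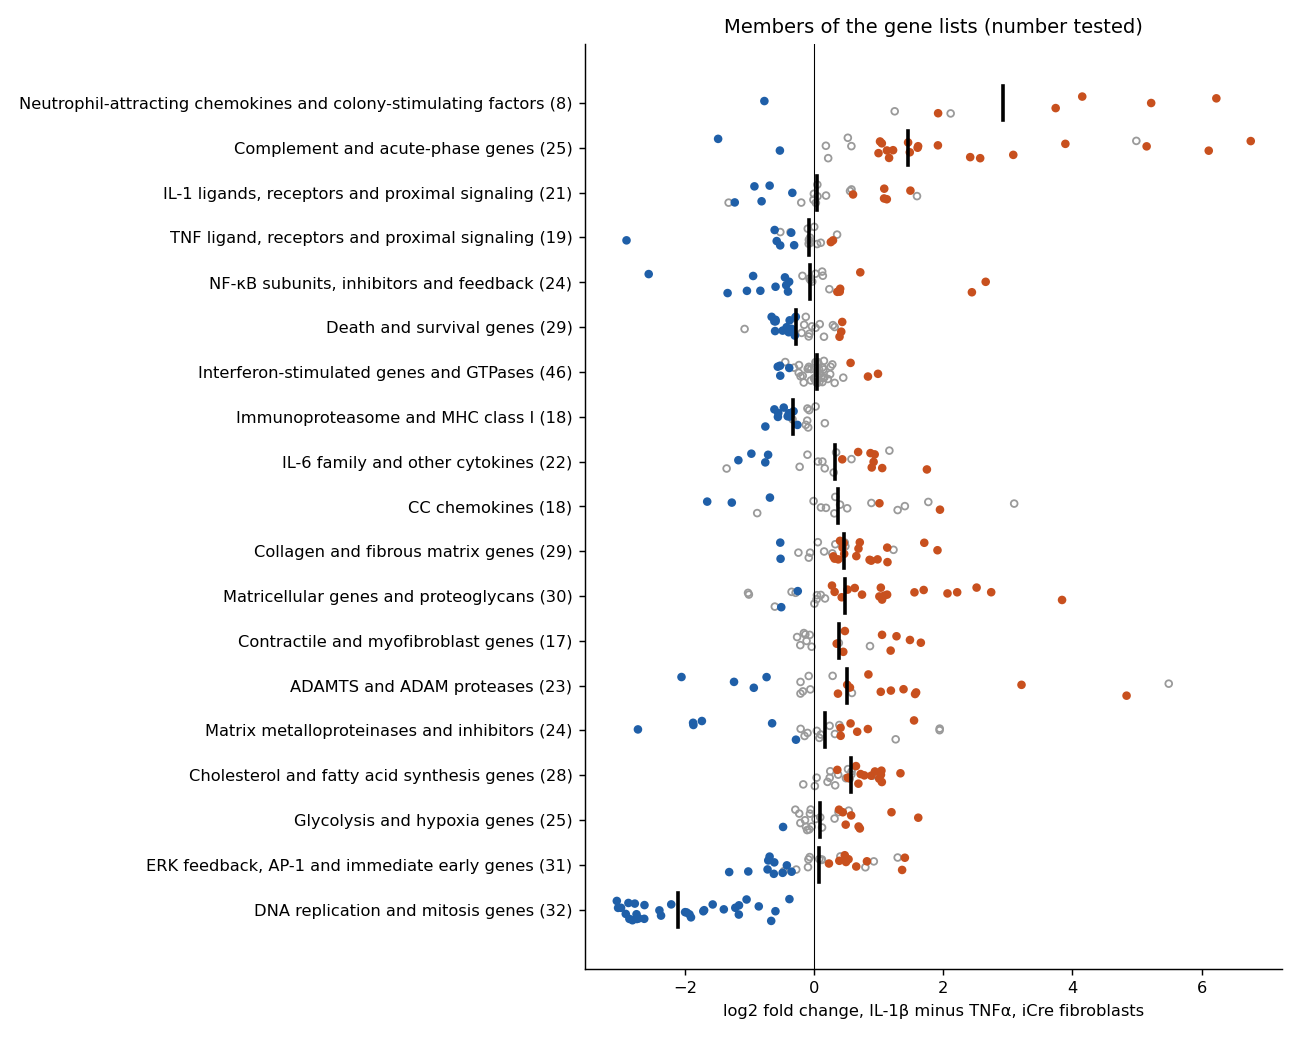
Log2 fold change between IL-1β and TNFα in iCre fibroblasts for the members of 19 gene lists, with the number tested in brackets. Filled points passed the test (orange higher, blue lower with IL-1β), open points did not, and black bars mark list medians, which run from −2.11 for replication and mitosis genes to 2.93 for neutrophil chemokines and colony-stimulating factors.

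Genes of DNA replication and mitosis were on the TNFα side. All 32 tested members of this list were lower with IL-1β than with TNFα, with a median log2 fold change of −2.11, and none was higher. Their summed level was 379.7 to 748 CPM with IL-1β and 1313 to 2049 CPM with TNFα, so that the groups did not overlap, and it was 336 to 514 CPM in iCre fibroblasts without ligand. *Plk1* (ENSMUSG00000030867) encodes a kinase of mitotic entry, and was at 5.53, 2.71, 7.24 and 13.6 CPM with IL-1β and 34.3, 55.9, 61 and 66.7 CPM with TNFα (log2 fold change −3.06, standard error 0.24, adjusted p = 1.8e-06). *Ccnb1* (ENSMUSG00000041431), for cyclin B1, was at 3.44, 2.18, 4.84 and 8.88 CPM with IL-1β and 26, 37.8, 37.5 and 42.5 CPM with TNFα (log2 fold change −3.04, standard error 0.21, adjusted p = 7.22e-07). *Mki67*, for the proliferation antigen Ki-67, was at 19, 11.4, 30.0 and 62.4 CPM with IL-1β and 137, 209.8, 173 and 171 CPM with TNFα (log2 fold change −2.74, standard error 0.30, adjusted p = 2.76e-05). The groups were apart for each of these genes, and IL-1β replicate 4 was the highest of its group in all 3.
*Top2a*, for the topoisomerase that untangles chromosomes, was at 18.8, 21.4, 27.8 and 50.9 CPM with IL-1β and 95.3, 173, 144 and 169.8 CPM with TNFα (log2 fold change −2.37, standard error 0.15, adjusted p = 3.56e-07). *Mcm5*, a subunit of the replicative helicase, was at 6.58, 6.54, 7.55 and 18.9 CPM with IL-1β and 24.5, 48.7, 45.1 and 52.3 CPM with TNFα (log2 fold change −2.21, standard error 0.18, adjusted p = 2.41e-06). *E2f1*, a transcription factor of S-phase genes, differed least of those described, at 36.9, 32.5, 32.2 and 37.2 CPM with IL-1β and 40.3, 45.4, 43.4 and 51.1 CPM with TNFα (log2 fold change −0.38, standard error 0.08, adjusted p = 0.00473). Its call was lost without replicate 3 and without the block.
The mitotic kinase gene *Aurkb* was at 2.94, 1.76, 3.95 and 7.84 CPM with IL-1β and 17.2, 35, 28.1 and 34.3 CPM with TNFα (log2 fold change −2.92, adjusted p = 3.61e-06), and the checkpoint kinase gene *Bub1* was at 1.36, 1.33, 1.89 and 5.03 CPM and 10.9, 17.7, 15.9 and 23.5 CPM (log2 fold change −2.99, adjusted p = 4.08e-07). The 10 genes that were lowest with IL-1β by the naming rule were *Pif1*, *Fer1l6*, *Sapcd2*, *Shcbp1*, *Iqgap3*, *Nuf2*, *Kif15*, *Plk1*, *Pbk* and *Nusap1*, of which 1, *Plk1*, is on the replication and mitosis list. Their log2 fold changes ran from −3.21 to −3.06. *Nuf2*, *Kif15*, *Nusap1* and *Plk1* encode proteins of the kinetochore or spindle. *Fer1l6* was at 0.0748, 0.291, 0.532 and 0.936 CPM with IL-1β and 0.458, 2.81, 5.90 and 7.75 CPM with TNFα, with overlapping groups.

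Between 28 and 32 members of the mitosis list were lower when a replicate was left out, and 27 were lower without the block. Against iCre fibroblasts without ligand, all 32 members were higher with TNFα and 20 were higher with IL-1β, with none lower in either case. In LacZ fibroblasts, 26 of the members were lower and 2 higher with IL-1β than with TNFα, with a median of −0.95, and 25 had a negative interaction. Summed levels in LacZ fibroblasts were 311 to 504 CPM with IL-1β, 371 to 947 CPM with TNFα and 329.6 to 744 CPM without ligand. The interaction was −2.05 for *Ccnb1* (adjusted p = 0.00445), −1.91 for *Plk1* (adjusted p = 0.013) and −1.30 for *Mki67* (adjusted p = 0.11), the last of which did not pass.

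**Figure D4:**
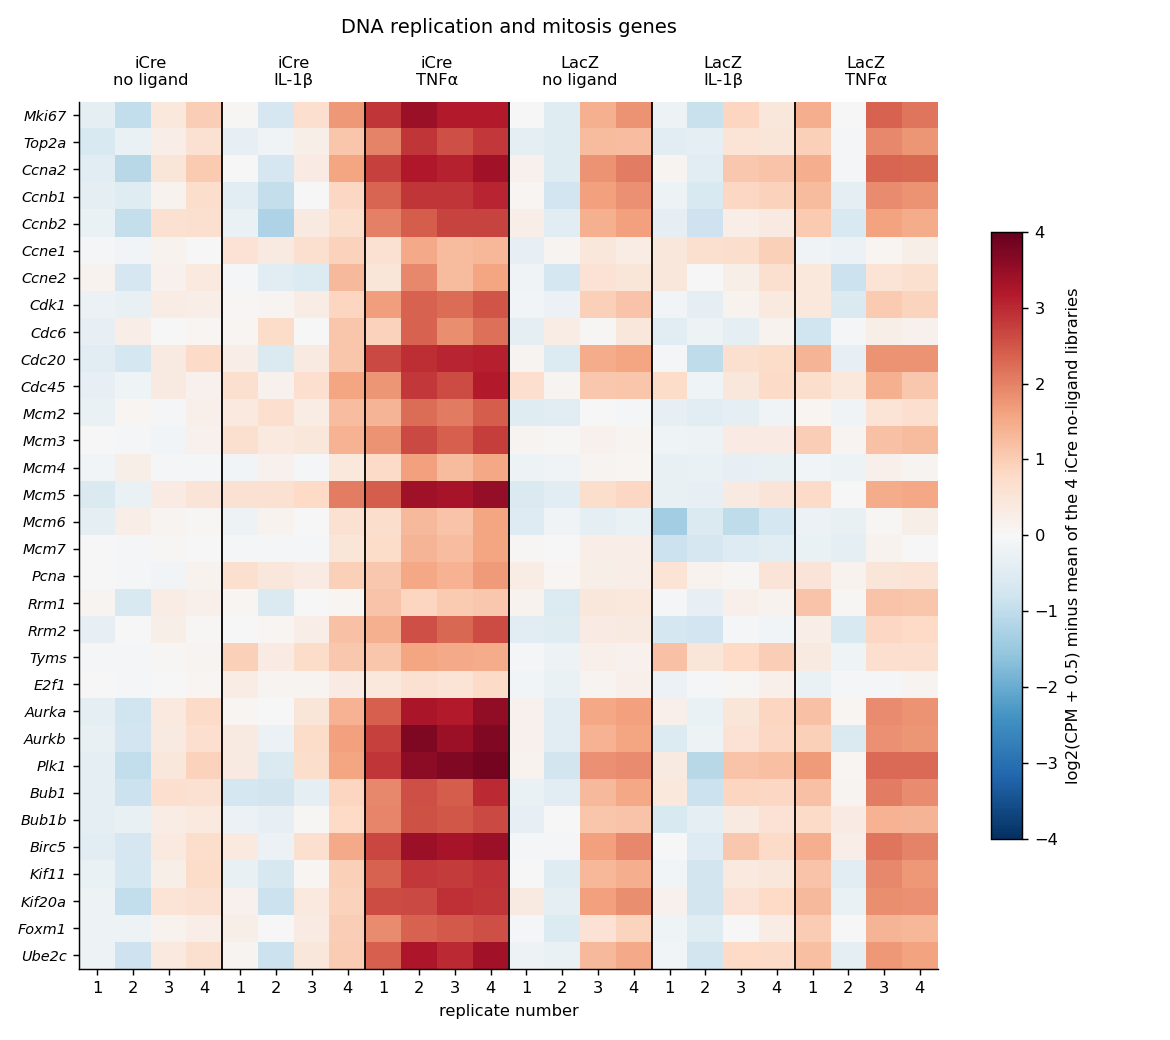
Heat map of the 32 replication and mitosis genes (rows) in 24 libraries (columns, by group and replicate number). Color is log2(CPM + 0.5) minus the mean of the 4 iCre libraries without ligand, and the 4 iCre TNFα columns are the reddest block, with a summed level of 1313 to 2049 CPM.

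Promoters of mitosis genes are shown for *Plk1* and *Ccnb1*, whose known regulators bind CCAAT boxes and the cell cycle homology region, here searched as CCAAT and TTTGAA on both strands. The window and build are as above, and capitals mark the matches.
*Plk1* (chr7:122159185-122159484, + strand): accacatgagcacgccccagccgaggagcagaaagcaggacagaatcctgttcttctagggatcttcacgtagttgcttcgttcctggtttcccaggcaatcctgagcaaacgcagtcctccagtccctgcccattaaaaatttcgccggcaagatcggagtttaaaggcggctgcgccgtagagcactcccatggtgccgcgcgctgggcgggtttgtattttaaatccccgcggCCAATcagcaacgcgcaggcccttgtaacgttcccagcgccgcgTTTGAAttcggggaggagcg
*Ccnb1* (chr13:100786437-100786736, − strand): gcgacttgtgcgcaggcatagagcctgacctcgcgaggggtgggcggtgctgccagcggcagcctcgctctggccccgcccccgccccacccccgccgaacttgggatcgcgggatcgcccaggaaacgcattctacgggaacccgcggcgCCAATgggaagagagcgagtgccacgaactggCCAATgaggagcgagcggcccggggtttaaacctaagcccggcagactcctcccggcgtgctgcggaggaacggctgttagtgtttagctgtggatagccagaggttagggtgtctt
*Plk1* holds CCAAT at base 237 and TTTGAA at base 281, and *Ccnb1* holds CCAAT at bases 152 and 184. Of the 26 mitosis list members with a promoter, 21 (80.8%) held CCAAT and 12 (46.2%) held TTTGAA. Of the 10 leading genes lower with IL-1β, 6 had a promoter, of which 1 held CCAAT and 3 held TTTGAA. Among 27025 genes, 41.1% held CCAAT and 20.2% held TTTGAA. The NF-κB motif was found in 2 of the 26.

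Of 46 tested interferon-stimulated genes, 3 were higher with IL-1β and 4 were lower in iCre fibroblasts (median 0.05), and these shares are near the 8.62% and 8.45% of all genes tested. None was called without the block. In LacZ fibroblasts 2 were higher and 41 lower, with a median of −1.21, and 15 had a positive interaction and none a negative one. Without replicate 1, 23 members were higher with IL-1β in iCre fibroblasts. *Irf1*, for a transcription factor of interferon responses, was at 52.1, 46.2, 41.4 and 39.3 CPM with IL-1β and 81.7, 60.3, 62.8 and 53.7 CPM with TNFα (log2 fold change −0.53, standard error 0.08, adjusted p = 0.000249), without overlap, and the call was lost without the block. In LacZ fibroblasts the contrast was larger (−2.07, adjusted p = 1.04e-16), and the interaction was 1.56 (adjusted p = 0.000173). *Gbp6*, a guanylate-binding protein gene whose reads can be shared with near copies, was at 8.39, 7.29, 8.46 and 6.42 CPM with IL-1β and 9.26, 2.81, 2.71 and 2.85 CPM with TNFα (log2 fold change 0.99, standard error 0.24, adjusted p = 0.0101). TNFα replicate 1 was above all IL-1β libraries, and the call was lost without replicate 3, without replicate 4 and without the block.
The antigen presentation genes were lower with IL-1β where they passed. *H2-K1*, an MHC class I heavy chain, was at 345, 184, 277 and 346 CPM with IL-1β and 655, 247, 414 and 492 CPM with TNFα (log2 fold change −0.62, standard error 0.09, adjusted p = 0.000312), with overlapping groups and a call that was lost without the block. Of 18 immunoproteasome and MHC class I genes, 10 were lower and none higher, with a median of −0.33. In LacZ fibroblasts all 18 were lower, with a median of −1.31, and 13 had a positive interaction. In iCre fibroblasts 6 were lower without replicate 1 and also without replicate 4, and none was called without the block.

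**Figure D5:**
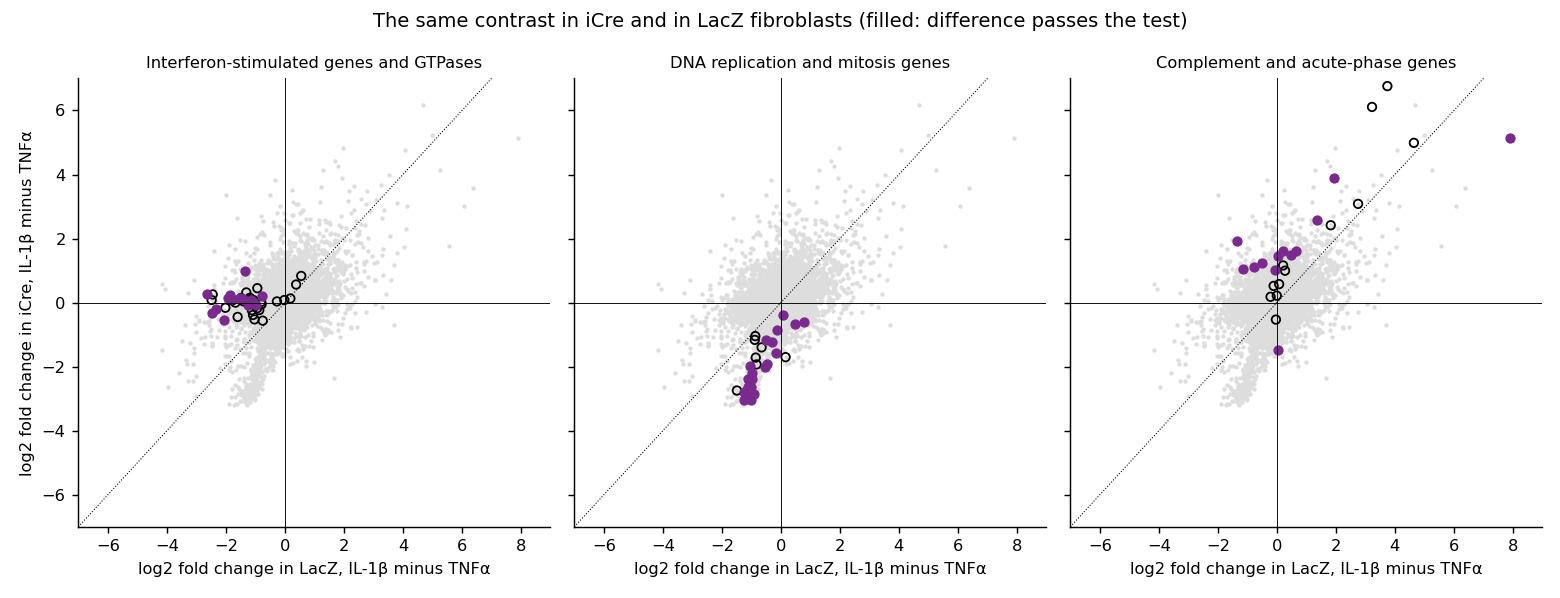
Log2 fold change between IL-1β and TNFα in iCre fibroblasts (vertical axis) against that in LacZ fibroblasts (horizontal axis). Gray points are the 12864 genes that averaged 1 CPM or more, circles are list members and filled circles passed the test of the difference, as 15 of 46 interferon-stimulated genes, 25 of 32 mitosis genes and 13 of 25 acute-phase genes did, and the dotted line marks equal values.

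Across the same 12864 genes, the contrast in iCre fibroblasts had a Pearson correlation of 0.45 and a Spearman correlation of 0.32 with that in LacZ fibroblasts. The comparisons share no library but share the animals' genotype, the ligands and the replicate numbers, and genes are not independent of each other. The genes that differed most between the adenoviruses were taken by the naming rule, which ranks only protein-coding genes above a set level. *Mmp1a* (interaction −4.82), annotated as a polymorphic pseudogene, was therefore not ranked here. *Csf3* had an interaction of −7.61 (adjusted p = 0.00366), and LacZ fibroblasts were at 21.9 to 33.1 CPM with IL-1β and 0 to 0.0350 CPM with TNFα. Since the latter group is close to 0, the size of this value is uncertain, and it depended on replicate 2, without which the interaction of *Csf3* was −3.60 and did not pass (adjusted p = 0.207). *Chrna1* (−4.12, adjusted p = 0.0213), *Pgf* (−4.02, adjusted p = 0.000295), *Msx2* (−3.54, adjusted p = 0.000437) and *Mmp10* (−3.41, adjusted p = 0.0267) followed on the negative side. The calls of *Chrna1* and *Mmp10* were lost without replicate 3 and without replicate 4, and *Mmp10* was at −2.35 without replicate 2. *Pgf*, which encodes placental growth factor, was at 11.6, 18.4, 15.8 and 8.27 CPM with IL-1β and 1.55, 11.4, 3.33 and 3.02 CPM with TNFα in iCre fibroblasts and at 32.4 to 35 CPM and 0.170 to 1.33 CPM in LacZ fibroblasts. The positive side was led by *Adamtsl1* (5.41, adjusted p = 0.000168), *Slc6a4* (4.87, adjusted p = 0.00158), *Cntn2* (4.79, adjusted p = 0.00158), *Nkain4* (4.66, adjusted p = 0.000474) and *Gbp10* (4.53, adjusted p = 0.000591). *Slc6a4*, the serotonin transporter gene, was at 0.214 to 0.454 CPM with IL-1β and 0.0238 to 0.534 CPM with TNFα in iCre fibroblasts and at 0 to 0.489 CPM and 4.54 to 10.2 CPM in LacZ fibroblasts.

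Glycolysis and sterol genes that passed were mostly higher with IL-1β, whereas redox genes were split. *Pfkfb3*, for an enzyme that raises the rate of glycolysis, was at 48.4, 56.3, 46.4 and 56.6 CPM with IL-1β and 18.9, 17.7, 15.7 and 15.2 CPM with TNFα (log2 fold change 1.61, standard error 0.10, adjusted p = 2.39e-07). *Hk2*, for hexokinase 2, was at 57.8, 52.4, 47.8 and 79.4 CPM with IL-1β and 23.6, 22.9, 24.3 and 31.1 CPM with TNFα (log2 fold change 1.20, standard error 0.08, adjusted p = 6.03e-07). *Mt2*, for a metal-binding metallothionein, was at 833, 1027, 651 and 1236 CPM with IL-1β and 186, 333, 209.6 and 228 CPM with TNFα (log2 fold change 1.96, standard error 0.13, adjusted p = 3.86e-07). None of these groups overlapped. *Sod2*, for mitochondrial superoxide dismutase, was at 184, 133, 132 and 183 CPM with IL-1β and 79, 128, 93.6 and 68.8 CPM with TNFα (log2 fold change 0.79, standard error 0.17, adjusted p = 0.00522), without overlap, and its call was lost without the block and with DESeq2. *Ass1*, which supplies arginine to nitric oxide synthase, went the other way at 213, 103, 172 and 219.7 CPM with IL-1β and 320.0, 343, 403 and 403 CPM with TNFα (log2 fold change −1.11, standard error 0.14, adjusted p = 8.02e-05).
Of 25 glycolysis and hypoxia genes, 8 were higher with IL-1β and 1 was lower (4 without replicate 1, none without replicate 2 or 3), against 21 and 3 in LacZ fibroblasts, with 14 negative interactions and 1 positive. Of 27 nitric oxide and antioxidant genes, 8 were higher and 9 lower, against 17 and 4 in LacZ fibroblasts. Without replicate 3, 4 of the nitric oxide and antioxidant genes were lower, and without the block this list had 3 higher and 1 lower and the glycolysis list 3 higher and none lower. Of 28 cholesterol and fatty acid genes, 14 were higher and none lower (median 0.56), but this count was 6 without replicate 1, 25 without replicate 2, 2 without replicate 3, 4 without replicate 4 and 1 without the block. *Hmgcs1*, for an early enzyme of cholesterol synthesis, was at 105, 60.4, 90.1 and 89.6 CPM with IL-1β and 37.6, 81.8, 30.2 and 31.6 CPM with TNFα (log2 fold change 1.04, standard error 0.25, adjusted p = 0.0112), with TNFα replicate 2 above its IL-1β partner. Its call was lost without replicates 1, 3 or 4 and with DESeq2.

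*Nptx1* (ENSMUSG00000025582; chromosome 11, 119538719 to 119547753) encodes neuronal pentraxin 1 and was at 26.9 to 147 CPM in iCre fibroblasts without ligand and at 0.497 to 1.60 and 1.05 to 2.48 CPM in LacZ fibroblasts with IL-1β and TNFα. Its level in the iCre groups was 56.5, 174, 143 and 177 CPM with IL-1β and 137, 454, 871 and 654 CPM with TNFα (log2 fold change −1.79, standard error 0.17, adjusted p = 5.98e-06). The groups overlapped, with replicate 1 the lowest of each, and TNFα was above IL-1β in all 4 pairs. Without the block the adjusted p was 0.0892. The interaction was −1.12 and did not pass (adjusted p = 0.0695). *Sema7a*, for a membrane-anchored semaphorin, was at 29.6, 56.4, 34.6 and 95.1 CPM with IL-1β and 27.3, 154, 112 and 195 CPM with TNFα (log2 fold change −1.04, standard error 0.20, adjusted p = 0.00276), and its call was lost without replicate 3 and without the block. *Sema3a*, for a secreted axon repellent, was at 18.4, 46.8, 30.8 and 31.8 CPM with IL-1β and 45.2, 149, 113 and 92.3 CPM with TNFα (log2 fold change −1.60, standard error 0.09, adjusted p = 1.76e-07). Each pair was higher with TNFα although the groups overlapped.

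The other genes that the naming rule took are given by their log2 fold change. Among inflammatory genes, the acute-phase genes *Saa1* and *Saa2* were at 0.0343 to 0.318 CPM and 0.218 to 0.467 CPM with IL-1β, and the chemokine gene *Cxcl15* was at 0 to 0.273 CPM, while none of the 3 had a count in the TNFα libraries. *Tnip3*, for an A20-binding inhibitor of NF-κB, was lower with IL-1β, at 0.145 to 0.411 CPM against 1.26 to 2.11 CPM (−2.56, adjusted p = 2.89e-05). The alarmin gene *Il33* (1.09, adjusted p = 0.0393), the LIF receptor gene *Lifr* (1.05, adjusted p = 0.003) and the chemokine gene *Cx3cl1* (0.36, adjusted p = 0.0104) were higher. The TNF receptor adaptor gene *Traf5* (−0.53, adjusted p = 0.00108) and the p38-activating kinase gene *Map2k6* (−1.09, adjusted p = 9.89e-05) were lower. Of interferon and antigen presentation genes, the interferon receptor gene *Ifnar2* (0.56, adjusted p = 0.000393) was higher, and *Irf8* (−0.56, adjusted p = 0.0253), *H2-Q4* (−0.76, adjusted p = 0.000135), *Nlrc5* (−0.56, adjusted p = 0.0129) and *Psmb10* (−0.56, adjusted p = 0.0012) were lower. The apoptosis regulator genes *Bcl2l1* (−0.62, adjusted p = 0.000234) and *Casp8* (−0.60, adjusted p = 0.000126) and the pyroptosis pore gene *Gsdmd* (−0.60, adjusted p = 0.000107) were lower with IL-1β without overlap of the groups.
Among matrix and contractile genes, the proteoglycan genes *Aspn* (2.74, adjusted p = 0.00718) and *Fmod* (2.21, adjusted p = 0.000656) and the matricellular gene *Comp* (2.52, adjusted p = 3.54e-06) were higher, as were the collagen genes *Col11a1* (1.13, adjusted p = 3.42e-05) and *Col14a1* (1.14, adjusted p = 0.000797) and the fibroblast markers *Postn* (1.08, adjusted p = 0.00092) and *Tcf21* (1.19, adjusted p = 0.000226). The smooth muscle genes *Cnn1* (1.48, adjusted p = 0.000276), *Lmod1* (1.28, adjusted p = 5.33e-05), *Myl9* (1.18, adjusted p = 4.05e-05) and *Mylk* (1.65, adjusted p = 0.0248) were higher too. *Mylk* was high in IL-1β replicate 2 (84.7 CPM) and had a log2 fold change of 0.71 without replicate 2, and *Aspn* was at 1.80 without that replicate. Of the proteases, *Adamts3* (3.21, adjusted p = 1.42e-06) and *Adam12* (1.58, adjusted p = 7.22e-07) were higher and *Adamts8* (−2.05, adjusted p = 2.89e-06) was lower, as were the collagenase genes *Mmp1a* (−2.73, adjusted p = 0.0192) and *Mmp1b* (−1.74, adjusted p = 0.0349), which are close copies at 0 to 2.40 CPM and 0.254 to 1.78 CPM with TNFα. *Mmp1a* is annotated as a polymorphic pseudogene. The coagulation gene *F3* (1.71, adjusted p = 7.04e-05), which encodes tissue factor, and the protease inhibitor gene *Serpine2* (0.53, adjusted p = 0.000282) were higher.
Of growth factor genes, *Tgfb2* (1.19, adjusted p = 0.00412) and *Bmp4* (1.01, adjusted p = 0.00661) and the BMP antagonist gene *Chrdl1* (2.59, adjusted p = 0.000501) were higher and *Bmp2* (−1.18, adjusted p = 6.96e-05) and *Pdgfb* (−1.74, adjusted p = 0.000703) lower, and the immediate early and ERK feedback genes *Egr2* (1.40, adjusted p = 0.000442) and *Spry1* (1.36, adjusted p = 0.000312) were higher. Of the list of pericyte and smooth muscle markers, *Abcc9* (1.62, adjusted p = 0.000153), *Kcnj8* (1.46, adjusted p = 8.89e-05) and *Pdgfrb* (0.82, adjusted p = 8.76e-05) were higher and *Cspg4* (−0.35, adjusted p = 0.0163) was lower. Which cells expressed them was not tested. Of metabolic genes, *Hif1a* (0.69, adjusted p = 0.000173), *Pdk1* (0.71, adjusted p = 1.3e-05), *Mt1* (1.34, adjusted p = 1.06e-06), *Cyp51* (1.05, adjusted p = 0.0106) and *Sqle* (1.03, adjusted p = 0.0321) were higher and *Gchfr* (−1.50, adjusted p = 0.0028) was lower, and of amino acid synthesis genes *Pycr1* (0.80, adjusted p = 0.000151) was higher and *Phgdh* (−0.83, adjusted p = 1.39e-05), *Psat1* (−0.67, adjusted p = 0.000167) and *Shmt2* (−0.60, adjusted p = 0.00134) were lower. The p53 targets *Eda2r* (−0.44, adjusted p = 0.000823), *Mdm2* (−0.55, adjusted p = 0.000155) and *Perp* (−0.57, adjusted p = 0.00984) were lower and *Sesn1* (0.59, adjusted p = 0.0013) was higher, and the mitochondrial mRNAs *mt-Nd4* (0.34, adjusted p = 0.0373) and *mt-Nd5* (0.46, adjusted p = 0.0151) were higher. Of these 62 genes, 49 lost their call without the block, 5 without replicate 1, 5 without replicate 2, 14 without replicate 3 and 11 without replicate 4.

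Markers of other heart cells were low, apart from those of pericytes and smooth muscle, and are given for the whole lists. The 5 endothelial markers summed to 9.07 to 13.1 CPM with IL-1β and 11.1 to 17.5 CPM with TNFα, with 1 of 5, *Cdh5*, lower with IL-1β (log2 fold change −1.58, standard error 0.16, adjusted p = 1.67e-05), a call that was lost without the block. The 6 leukocyte and macrophage markers summed to 33.8 to 109 CPM with IL-1β and 34.3 to 115 CPM with TNFα, mostly *Lyz2*, and none passed. The 6 pericyte and smooth muscle markers summed to 934 to 1634 CPM and 586 to 1651 CPM, with 3 higher and 1 lower with IL-1β, of which the 1 lower was not called without replicate 3 and the counts were 2 and none without the block. Of 5 cardiomyocyte markers, *Myh6* and *Nppa* had too few counts to be tested, *Actc1* and *Ttn* were at 0 in some libraries, and none of the 3 tested passed, with sums of 1.93 to 15.9 CPM with IL-1β and 0.904 to 20.1 CPM with TNFα. The 4 epicardial markers summed to 2.54 to 7.02 CPM and 2.04 to 4.92 CPM, and none passed. The part of other cell types in the results above was not tested.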

How the data were processed

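The deposited values are raw read counts for each Ensembl gene in 40 libraries, which the authors made from single-end poly-A reads with STAR and HTSeq 0.10.0. FastQC 0.10.1 and the builds mm10 and GRCm38 are named in the submitters' processing notes. The methods name a TruSeq Stranded kit and the labels a NEBNext Ultra II kit, and the strand setting and annotation release are not given in the sources used here, so overlapping and antisense genes may share reads. Of 55414 gene identifiers, 52133 were in GENCODE M21 on GRCm38, which gave positions, and they held 99.6% of counts. No count column was without a sample.

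The 4 IL-1β and 4 TNFα iCre libraries were compared by edgeR 4.0.16 in R 4.3.3 (glmQLFit, TMM, replicate number as a block, Benjamini-Hochberg over 25210 genes with at least 10 counts over 40 libraries, threshold 0.05). CPM values use TMM-scaled library sizes. The contrast in LacZ fibroblasts and the comparisons with no ligand were fitted likewise, and the difference between iCre and LacZ over 16 libraries. Python 3.11.15 with pandas 2.3.3, numpy 2.4.6 and matplotlib 3.10.9 made tables and figures. The fits of the main contrast and of the interaction were tested on simulated data, and the other fits were not. Changed genes were recovered there, and how many is not given here. With gene-wise spread the share of false calls exceeded the threshold. Calls, above all those near 0.05, are therefore less reliable than their adjusted p says. Replicate numbers come from the sample titles. Deviations from group means of same-numbered IL-1β and TNFα libraries correlated at 0.52 to 0.76 over 12864 genes, against −0.61 to 0.32 for different numbers. The labels do not say that a number marks a shared animal, and the paper speaks of biological replicates. If numbers stand for separate cultures of fewer animals, p-values measure the spread between cultures. Replicate 1 of both groups has library names from an earlier number range than replicates 2 to 4.

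Genes were named by rule: *Map3k7* and *Nptx1*, the 10 protein-coding genes that changed most in each direction (mean of at least 1 CPM, same direction in 4 of 4 pairs), up to 4 members of each of 37 lists with the largest change, and the 5 protein-coding genes with the largest interaction in each direction (mean of at least 1 CPM over the 16 libraries). Apart from *Map3k7* and *Nptx1*, only genes that passed the test concerned were taken, so that some lists gave fewer than 4 members or none. The rule took 146 genes, all of which are named in the text. Of the 167 genes described, 21 are outside the rule and were chosen after their values were seen. The comparison and lists were chosen with earlier results of these data known. Alternatives were DESeq2 1.42.0, RLE normalization, raw library sizes, filterByExpr, no filter, no replicate block, a GC correction with the block, all 40 libraries, protein-coding genes, a minimum log2 change of 1 and leaving out each replicate. Promoter sequences are from RefSeq on GRCm38.p6. Intervals and p-values do not cover reads duplicated by PCR, since no molecular identifiers were used. The other ligands, mouse hearts and protein data are not analysed here.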

Additional observations from a re-analysis of the deposited data

Results flagged for a closer look

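In groups of 4 libraries, 38 of 334 groups tested had a library far from the others by Dixon's test, which marks about 1 in 20 among independent normal values. The groups here share the same libraries and many of the genes were named for a large change. The number marked is therefore a description and cannot be set against that rate. Replicate 2 of the TNFα group was the high library for *Nos2* (0.333 CPM), *Csf3* (2.33 CPM), *Steap4* (345 CPM), *Il1rl1* (2046 CPM), *Ccl2* (1207 CPM), *Mmp10* (68.5 CPM), *F2rl1* (21.2 CPM), *Chrna1* (34.7 CPM), *Hmgcs1* (81.8 CPM), *Idi1* (3.54 CPM), *Cyp51* (77.2 CPM), *Sqle* (55.8 CPM), *Il33* (95.1 CPM) and *Mmp1b* (1.78 CPM). Replicate 2 of the IL-1β group was high for *Il1rl1* (879 CPM), *Mmp10* (5.29 CPM), *F2rl1* (2.85 CPM), *Bmp2* (57.6 CPM), *Ccl11* (17.3 CPM), *F3* (63.7 CPM), *Madcam1* (1.07 CPM) and *Mylk* (84.7 CPM). TNFα replicate 1 was high for *Ogn* (18.3 CPM), *Gbp6* (9.26 CPM), *Aoc3* (1.86 CPM), *Cntn2* (1.35 CPM), *Nkain4* (4.58 CPM), *Aspn* (6.99 CPM), *Ccl8* (13.6 CPM), *Col14a1* (155 CPM), *Fmod* (25.8 CPM) and *Spry1* (42.4 CPM). IL-1β replicate 4 was high for *Fosl1* (90.4 CPM), *Mcm5* (18.9 CPM), *Bub1* (5.03 CPM), *Mmp1b* (0.375 CPM) and *Phgdh* (40.5 CPM), and TNFα replicate 4 for *Phgdh* (83.5 CPM). All of these are the highest value of their group.

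The contrast between IL-1β and TNFα differed between iCre and LacZ fibroblasts, by the interaction test of edgeR, for 73 of the genes described, given here as the difference on the log2 scale (iCre minus LacZ). The cell cycle inhibitor gene *Cdkn1c* was positive (2.36), and genes of replication and mitosis were negative, namely *Plk1* (−1.91), *Ccnb1* (−2.05), *Top2a* (−1.20), *Mcm5* (−1.20), *Bub1* (−1.91), *Aurkb* (−1.89), *E2f1* (−0.42), *Pif1* (−2.04), *Nuf2* (−1.82), *Kif15* (−1.92) and *Nusap1* (−1.67). Of the genes of inflammation and immunity, the positive ones were *Saa3* (2.04), *Irak3* (0.90), *Map3k8* (0.79), *Ptx3* (3.29), *C1ra* (1.39), *Nfkbie* (1.16), *Ccl9* (1.22), *Vcam1* (0.84), *H2-K1* (0.85), *Irf1* (1.56), *Gbp6* (2.13), *Ccl8* (1.43), *Gsdmd* (0.83), *Lifr* (1.83), *Madcam1* (1.80), *Psmb10* (1.54), *Tbxa2r* (0.90) and *Gbp10* (4.53), and the negative ones were *Cxcl1* (−1.19), *Csf3* (−7.61), *Lcn2* (−2.81), *Il6* (−2.19), *Il11* (−2.31), *Tslp* (−1.19), *Ptgs1* (−0.95), *Ptgs2* (−1.73), *Casp8* (−0.38) and *Ass1* (−0.87). Of the remaining genes, *Ogn* (3.84), *Adamts15* (2.75), *Angpt2* (1.78), *Igfbp5* (2.77), *Aoc3* (2.53), *Gdpd2* (2.45), *Nkain4* (4.66), *Cntn2* (4.79), *Slc6a4* (4.87), *Adamtsl1* (5.41), *Bmp4* (2.79), *Chrdl1* (3.06), *Col11a1* (1.21), *Comp* (0.98), *F3* (1.02), *Fmod* (2.95), *Myl9* (1.09), *Pdgfrb* (0.55), *Spry1* (1.26), *Tcf21* (1.42) and *Acta2* (2.04) were positive and *Sema7a* (−1.58), *Mmp10* (−3.41), *Plaur* (−1.81), *Fosl1* (−1.47), *Etv4* (−1.95), *Chrna1* (−4.12), *Pgf* (−4.02), *Msx2* (−3.54), *Kcnj8* (−1.49), *Mdm2* (−0.38), *Mmp1a* (−4.82) and *Cdh5* (−1.22) were negative. Without replicate 3, 43 of the described genes lost the interaction call, 26 did so without replicate 4 and 14 without replicate 2. Without the block 61 did.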

How the results depend on the processing

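Of the counts of called genes, those between IL-1β and TNFα in iCre fibroblasts (2173 higher, 2130 lower) stayed within 1.5 times under DESeq2, RLE normalization, raw library sizes, filterByExpr, no filter, a GC correction with the block, all 40 libraries and protein-coding genes alone, and no described gene changed direction. The lower genes were the more numerous with raw library sizes (2008 higher, 2442 lower), filterByExpr (2014 and 2120), all 40 libraries (2234 and 2253) and without the block. Without the replicate block, the iCre counts were 243 and 426, those in LacZ fibroblasts 1220 and 1206 (3029 and 3078 with the block), and 184 interactions were positive and 158 negative (1500 and 1200 with it). Against no ligand, IL-1β gave 2364 higher and 1734 lower without the block (4570 and 3943 with it). A minimum log2 change of 1 left 670 higher and 503 lower in iCre, 670 and 851 in LacZ, 698 positive and 418 negative interactions, 697 and 963 with IL-1β against no ligand, and 1212 and 1911 with TNFα against no ligand. Leaving out a replicate gave from 1117 to 2605 higher and from 1043 to 2507 lower in iCre, lowest without replicate 3, and 389 to 1840 positive and 294 to 1772 negative interactions. DESeq2 gave 2036 negative interactions. A replicate block within each adenovirus, chosen after seeing the data, gave 2279 positive and 1844 negative interactions. With raw library sizes, 3004 genes were higher with IL-1β than without ligand. The causes of these shifts were not tested, except that a minimum change removes small changes by construction.

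Of the 167 genes described, 103 lost their call without the block, 11 with DESeq2, 16 with filterByExpr, 15 with all 40 libraries, and 8, 6, 26 and 18 without replicates 1 to 4. Depth limits *Nos2*, *Csf3*, *Inmt*, *Aoc3*, *Gdpd2*, *Adamts15*, *Adamtsl1*, *Fer1l6*, *Sapcd2*, *Msx2*, *Cntn2*, *Gbp10*, *Nkain4*, *Slc6a4*, *Abcc9*, *Adamts3*, *Chrdl1*, *Cxcl15*, *Gchfr*, *Madcam1*, *Mmp1a*, *Mmp1b*, *Pdgfb*, *Saa1*, *Saa2*, *Tlr5* and *Tnip3*, for which at least 3 of the 4 libraries of an iCre group were under 1 CPM. Each ligand was used at 1 dose and 1 time, so that ligand and dose cannot be told apart.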

Other observations

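Transcription factors and feedback genes of the ERK and AP-1 pathways were split between the ligands in iCre fibroblasts. Of 31 tested members, 9 were higher and 10 lower with IL-1β, whereas in LacZ fibroblasts 17 were higher and 3 lower, with 10 negative interactions and 1 positive. *Fosl1*, for the AP-1 subunit FRA-1, was at 51.7, 49.5, 53.5 and 90.4 CPM with IL-1β and 68.2, 138, 129 and 167 CPM with TNFα (log2 fold change −1.02, standard error 0.13, adjusted p = 0.000113), and its contrast had the opposite sign in LacZ fibroblasts (log2 fold change 0.49, adjusted p = 0.000909). *Etv4*, an ETS factor induced by ERK, was at 12.9, 22.2, 16.4 and 28.7 CPM with IL-1β and 23, 65.4, 52.7 and 62.9 CPM with TNFα (log2 fold change −1.32, standard error 0.12, adjusted p = 5.43e-06), and also had the opposite sign in LacZ fibroblasts (log2 fold change 0.58, adjusted p = 0.00133). The groups of both overlapped, each pair was higher with TNFα, and both calls were lost without the block. Without the block none of the 31 members was called. Among growth factor and axon guidance genes, IL-1β was the higher ligand for 14 of 38 and TNFα for 4, and without the block for none and 1. *Angpt2*, a vessel-destabilizing ligand of TIE2, was at 37.6, 33.2, 24.8 and 3.45 CPM with IL-1β and 9.38, 4.45, 4.15 and 1.95 CPM with TNFα (log2 fold change 2.18, standard error 0.23, adjusted p = 1.95e-05), with overlapping groups and a call lost without the block. *Igfbp5*, a binding protein of insulin-like growth factors, was at 221, 279.7, 88.7 and 74.2 CPM with IL-1β and 66.6, 59.4, 25 and 37.4 CPM with TNFα (log2 fold change 1.70, standard error 0.14, adjusted p = 3.09e-06), without overlap, while it was lower with IL-1β in LacZ fibroblasts (log2 fold change −1.03, adjusted p = 2.1e-10). The call of *Igfbp5* was lost without the block.

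Death and survival genes that passed were mostly higher with TNFα. Of 29 tested, 3 were higher and 12 lower with IL-1β, with a median of −0.28, and without the block none was higher and 3 were lower. Without replicate 3, 1 was higher and 8 were lower. *Mlkl*, the executioner of necroptosis, was at 33.2, 27.4, 32.9 and 43.6 CPM with IL-1β and 52, 46.1, 52.8 and 62.7 CPM with TNFα (log2 fold change −0.66, standard error 0.07, adjusted p = 3.61e-05), without overlap, and its call was lost without the block. In LacZ fibroblasts 3 of the 29 were higher and 22 lower. Of 18 p53 targets 2 were higher and 5 lower, of 26 genes of the ATF4 and ER stress list 4 were higher and 7 lower, and of 30 TGFβ and BMP genes 9 were higher and 3 lower. Of 16 plasminogen and coagulation genes 4 were higher and 3 lower, of 9 interferon-type and homeostatic chemokines 2 were higher and none lower, and of 3 genes gained without TAK1 none was higher and 2 were lower. None of these 6 lists had more than 1 member called in either direction without the block, and the number lower was 2 for p53 targets without replicate 4 and 3 for the ATF4 list without replicate 3 or 4, while for TGFβ and BMP genes it was 6 without replicate 1 and 5 without replicate 2. Leaving out a replicate took the number higher as low as 1 for p53 targets, 2 for the ATF4 list and 1 for the interferon-type and homeostatic chemokines. It took the number lower to 1 for genes gained without TAK1. Among all genes tested, 8.62% were higher and 8.45% lower. The p53 targets higher (11.1%) and the TGFβ and BMP genes lower (10%) were near those shares. Of 7 mitochondrial mRNAs tested 2 were higher and none lower. The number higher was 4 without replicate 1, and none was called without replicate 2, without replicate 3, without replicate 4 or without the block. The log2 fold changes of 12121 protein-coding genes had a Spearman correlation of 0.03 with the GC content and 0.16 with the length of their longest transcript, given as a description across genes. *Idi1*, an enzyme of sterol synthesis, was at 5.29, 2.73, 4.33 and 4.52 CPM with IL-1β and 1.32, 3.54, 1.07 and 1.26 CPM with TNFα (log2 fold change 1.34, standard error 0.33, adjusted p = 0.0129), and its call was lost without replicate 1, without replicate 3, without replicate 4 and without the block.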
